A study of Homo sapiens with 6 samples.

Results

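Fibronectin, periostin and the matricellular glycoproteins were described here as a set of 10 genes: FN1, POSTN, TNC, THBS1, THBS2, SPARC, SPARCL1, SPP1, MGP and VTN. The genes were chosen by name, as a list drawn up with earlier results of the WT and NUAK2-CR comparison known. Their own differences between the groups are thus given as a description, and no p-value is printed for them. Where the text says that one of them passed a threshold, the call is from the fit of all genes. Such calls are not evidence about the 10 genes. All 10 were found by NCBI gene identifier among the 28395 genes of the count table, and all 10 were among the 14873 genes with enough counts to be tested. RNA was measured in 6 libraries of U251MG, an established human glioblastoma cell line. Of these, 3 are titled WT and 3 are titled N2CR, called NUAK2-CR here. The columns of the count table name the N2CR libraries N2KO. NUAK2 encodes a serine/threonine kinase of the AMPK-related family. NUAK2-CR cells are described as CRISPR-edited in NUAK2, made by transducing a guide in lentiviral vectors with GFP and mCherry and sorting cells positive for both colors into wells, from which clones were grown. WT cells are described as wildtype, and a vector control is not described for them in the sources used here. Cells of the line are grown in medium with fetal bovine serum, and no time point or drug is given for these libraries. The labels name no clone, and a dataset legend of the study names a single one, CR-3, so the 3 NUAK2-CR libraries may stem from 1 clone. Nothing states that the libraries came from separate cultures, and p-values measure only the spread between these libraries, which may be technical.

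Fibronectin is a large secreted glycoprotein that cells assemble into fibrils through integrins that read its RGD motif, and it carries binding sites for collagen and heparin. Periostin, tenascin-C, the thrombospondins, SPARC and osteopontin are called matricellular because they sit in the matrix and adjust how cells attach to it, more than they bear load themselves. In brain tumors tenascin-C, SPARC, fibronectin and osteopontin are well-known parts of the tumor matrix, while vitronectin is chiefly a plasma protein made in the liver.

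In the NUAK2-CR libraries, periostin and fibronectin transcripts were far more abundant than in WT, by 39.8-fold and 9.37-fold, and MGP and THBS2 were 4.32-fold and 2.87-fold higher. In bulk RNA, a difference in the number of cells that make a transcript and in RNA per cell cannot be told apart. Osteopontin, encoded by SPP1, was 3.47-fold lower. SPARC, the most abundant of the 10 per kilobase in WT, differed by less than its spread, and TNC and THBS1 differed by small amounts. SPARCL1 and VTN had few reads in every library. The differences thus ran in both directions within this class of proteins.

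The sequences just upstream of 4 of the genes are shown because these genes had large differences between the groups, POSTN, FN1 and THBS2 upward and SPP1 downward. Each is the 250 bases before the annotated RefSeq start on GRCh38.p14, written 5′ to 3′ on the strand of the gene. The windows are chr2:215436069-215436318 on the minus strand for FN1, chr13:37598769-37599018 on the minus strand for POSTN, chr6:169253847-169254096 on the minus strand for THBS2 and chr4:87975464-87975713 on the plus strand for SPP1. Capitals mark matches on either strand to TATAAA (the TATA box), GGGCGG (a GC box), TGACGTCA (a cyclic AMP response element), TGANTCA (an AP-1 type element), GGAATG (a TEAD type element) or the CArG box of serum response factor.
FN1: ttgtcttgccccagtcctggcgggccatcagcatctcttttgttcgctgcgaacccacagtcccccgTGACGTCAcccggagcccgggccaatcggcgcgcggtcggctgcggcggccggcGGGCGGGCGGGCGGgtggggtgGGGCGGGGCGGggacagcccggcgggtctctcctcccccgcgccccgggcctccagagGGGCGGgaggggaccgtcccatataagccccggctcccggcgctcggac
POSTN: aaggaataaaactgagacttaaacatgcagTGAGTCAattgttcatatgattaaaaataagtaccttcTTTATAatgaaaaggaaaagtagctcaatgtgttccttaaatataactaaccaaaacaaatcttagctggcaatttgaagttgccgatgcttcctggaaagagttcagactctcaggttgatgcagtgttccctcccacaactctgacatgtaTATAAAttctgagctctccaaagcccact
THBS2: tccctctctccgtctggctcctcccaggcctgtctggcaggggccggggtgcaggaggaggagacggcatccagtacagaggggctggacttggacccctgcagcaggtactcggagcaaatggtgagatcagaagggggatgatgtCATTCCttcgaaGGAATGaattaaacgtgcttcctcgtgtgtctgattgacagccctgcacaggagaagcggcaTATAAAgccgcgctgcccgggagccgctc
SPP1: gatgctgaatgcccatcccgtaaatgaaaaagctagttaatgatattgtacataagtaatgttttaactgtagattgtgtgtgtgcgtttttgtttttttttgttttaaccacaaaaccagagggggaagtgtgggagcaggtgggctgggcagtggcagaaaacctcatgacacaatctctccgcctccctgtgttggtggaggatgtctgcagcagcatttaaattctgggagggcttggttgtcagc
The windows of FN1 and POSTN differ widely in base composition. GC content was 76.4% in FN1, 36.4% in POSTN, 60.0% in THBS2 and 44.8% in SPP1, against a median of 58.0% over 35116 windows of the same length. FN1 held 6 matches to GGGCGG, some of which share letters with the next, and 1 match to TGACGTCA that begins 183 bases before the start. POSTN held TATAAA 29 bases before the start, a match to the same motif on the opposite strand at 182 bases and TGAGTCA at 220 bases. THBS2 also held TATAAA 29 bases before the start, and it held GGAATG on both strands at 91 and 103 bases. In SPP1 none of the 6 motifs was present, which says only that these letters are not in this window. Over all windows TATAAA was present in 10.7%, GGGCGG in 42.6%, TGACGTCA in 1.65%, TGANTCA in 6.57%, GGAATG in 11.9% and the CArG box in 1.16%. Over the 17016 windows of genes tested here, where a gene may have several starts, the shares were 6.23%, 61.3%, 2.42%, 4.70%, 9.80% and 1.08% in the same order, and the median GC content was 64.4%. Windows of 9 of the 10 genes were found, without MGP. Among the 9, TATAAA was present in POSTN, THBS2 and SPARCL1, GGGCGG in FN1, TNC and THBS1, GGAATG in THBS1, THBS2, SPARC and VTN, and the CArG box in SPARCL1. These matches describe letters and were not tested as binding sites.

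Counts on genes summed to between 35310946 and 55574081 in the WT libraries and to between 29648445 and 33776712 in the NUAK2-CR libraries. NUAK2 itself was measured at 1926, 1457 and 1580.1 normalized counts for WT and 799, 961 and 849 for NUAK2-CR, with replicates 1 to 3 in order here and below, where normalized counts are reads scaled to the mean library. Its log2 fold change (LFC) of NUAK2-CR over WT was -0.93, with a standard error (SE) of 0.11 and an adjusted p of 1.8e-05 (quasi-likelihood test of edgeR, Benjamini-Hochberg), in the direction of the label, with RNA of the gene still present in all 3 NUAK2-CR libraries. The glial label of the line was checked on 10 glioma and astrocyte markers, whose summed normalized counts ranged from 335652 to 373068 in WT and from 149117 to 156029 in NUAK2-CR. Of the 9 that could be tested none was higher and 7 were lower in NUAK2-CR, GFAP with an LFC of -2.56 among them. At an adjusted p under 0.05, 26.3% of all genes tested were higher and 28.2% were lower. The marker list was chosen with earlier results known, so nothing is read from these shares. AQP4 had 2 counts in each WT library and 0 in each NUAK2-CR library.

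FN1 (gene 2335, chromosome 2 from 215360865 to 215436068, minus strand) encodes fibronectin. The WT libraries held 23707, 32321 and 27379 normalized counts, and the NUAK2-CR libraries held 284354, 257381 and 239689. The groups did not overlap, and the lowest NUAK2-CR library held 7.42 times the highest WT library. WT averaged 27803 ± 4323 and NUAK2-CR 260475 ± 22493 (SD, n = 3 each), for an LFC of 3.23 (SE 0.11). The 3′ end of FN1 overlaps the gene ATIC on the opposite strand by 7728 bases. Counting is described as run at default settings, and no strand setting is named. How reads on bases shared by 2 genes were treated was not tested here. ATIC itself held 3092 to 5378 counts in WT and 3378 to 3815 in NUAK2-CR, where FN1 held 25471 to 35690 and 213417 to 223938.

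POSTN (gene 10631, chromosome 13 from 37562585 to 37598768, minus strand) encodes periostin, a fasciclin-domain protein that binds integrins and fibronectin and takes part in collagen assembly. It had 2184, 2838 and 2558 normalized counts in the WT libraries and 96781, 96889 and 107858 in the NUAK2-CR libraries. Every NUAK2-CR library stood at least 34.1 times above every WT library. The LFC was 5.31 (SE 0.11), which placed POSTN 14th from the top of all 14873 genes tested, while FN1 was 85th. POSTN and FN1 did not differ by the same factor. FN1 counts per POSTN count averaged 11.0 ± 0.36 in WT against 2.61 ± 0.36 in NUAK2-CR (SD, n = 3 each), and this ratio within a library does not depend on scaling.

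TNC (gene 3371, chromosome 9 from 115019575 to 115118157, minus strand) encodes tenascin-C, a star-shaped glycoprotein that interferes with attachment to fibronectin. Normalized counts were 58129, 72236 and 66444 for WT and 55156, 56729 and 49110.3 for NUAK2-CR. The groups came close to each other, since the lowest WT library was 1.02 times the highest NUAK2-CR library. The LFC was -0.29 (SE 0.09), and TNC no longer passed the threshold of an adjusted p under 0.05 without WT replicate 2, at -0.22, or without NUAK2-CR replicate 3, at -0.23. Set against TNC, FN1 counts per TNC count averaged 0.422 ± 0.0217 in WT against 4.86 ± 0.31, and POSTN counts per TNC count 0.0385 ± 0.000859 against 1.89 ± 0.269 (SD, n = 3 each).

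THBS1 (gene 7057, chromosome 15 from 39581079 to 39599466, plus strand) and THBS2 (gene 7058, chromosome 6 from 169215785 to 169253846, minus strand) encode the trimeric thrombospondins, which bind CD36 and CD47 and restrain the growth of vessels. WT libraries held 36076, 42788 and 44918 normalized counts of THBS1 against 57467, 54575 and 53896 for NUAK2-CR. For THBS2 the values were 1039, 1214 and 1144 against 3366, 3376 and 2992. Both were higher in every NUAK2-CR library than in any WT library, but by unlike amounts. The LFC was 0.42 (SE 0.08) for THBS1 and 1.52 (SE 0.08) for THBS2, and THBS1 counts per THBS2 count went from 36.4 ± 2.49 to 17.1 ± 0.924 (SD, n = 3 each). THBS1 overlaps FSIP1 on the opposite strand, which had 85 to 149 counts in WT and 36 to 45 in NUAK2-CR. THBS2 overlaps the antisense transcript THBS2-AS1, which had 0 counts in each WT library and 8, 8 and 7 counts in NUAK2-CR replicates 1, 2 and 3.

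SPARC (gene 6678, chromosome 5 from 151661096 to 151686915, minus strand) encodes the collagen-binding glycoprotein also called osteonectin. In WT it reached 97196, 138012 and 139586 normalized counts, and in NUAK2-CR 110632, 114181 and 112760. The NUAK2-CR libraries lay within the range of the WT libraries, of which replicate 1, the deepest, stood low. The LFC was -0.15 (SE 0.11) with all libraries and -0.30 without WT replicate 1, where SPARC passed the threshold on adjusted p. The antisense transcript CLMAT3, which SPARC overlaps, had at most 16 counts in a library. SPARCL1 (gene 8404, chromosome 4 from 87473335 to 87529376, minus strand), the SPARC relative also called hevin that astrocytes release at synapses, had 30, 18 and 17 raw counts for WT and 34, 16 and 38 for NUAK2-CR. NUAK2-CR replicate 2 lay with the WT libraries. The LFC of SPARCL1 was 0.90 (SE 0.39), and it passed the threshold without NUAK2-CR replicate 2, at 1.19, and where at least 10 counts were required in every library, at 0.89.

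SPP1 (gene 6696, chromosome 4 from 87975714 to 87983411, plus strand) encodes osteopontin, a secreted phosphoprotein that binds CD44 and RGD-reading integrins. Its normalized counts were 3843, 7047 and 7061 for WT but 1717, 1740.3 and 1721 for NUAK2-CR. The 3 NUAK2-CR libraries were close together, with a coefficient of variation of 0.721%, while WT replicate 1 stood well below the other WT libraries and still 2.21 times above the highest NUAK2-CR library. For SPP1 the LFC was -1.79 (SE 0.18), and -2.02 without WT replicate 1. SPP1 was the only one of the 10 with an LFC under -1. MGP (gene 4256, chromosome 12 from 14880864 to 14885854, minus strand) encodes matrix Gla protein, a vitamin K-dependent inhibitor of calcification. Against 947, 1501 and 1417 normalized counts in WT, the NUAK2-CR libraries held 5233, 6019 and 5458, and the groups did not overlap. For MGP the LFC was 2.12 (SE 0.14), and 1.94 without WT replicate 1, which again was the lowest WT library. That library was the lowest in WT for each of the 10 genes except SPARCL1 and VTN. Without it the LFC of every gene but SPARCL1 and VTN was lower, at 3.13 for FN1 and 5.23 for POSTN. The ratio of SPP1 to MGP, both linked to mineralized matrix, turned over. WT libraries held 4.58 ± 0.474 SPP1 counts per MGP count, and NUAK2-CR libraries held 3.23 ± 0.211 MGP counts per SPP1 count (SD, n = 3 each).

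VTN (gene 7448, chromosome 17 from 28367284 to 28370307, minus strand) encodes vitronectin, an adhesive protein of plasma and matrix that integrins bind. It had 18, 6 and 12 raw counts for WT and 9, 6 and 8 for NUAK2-CR. The ranges overlapped, the LFC was -0.17 (SE 0.53), and a difference was not detectable at this depth.

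**Figure D1:**
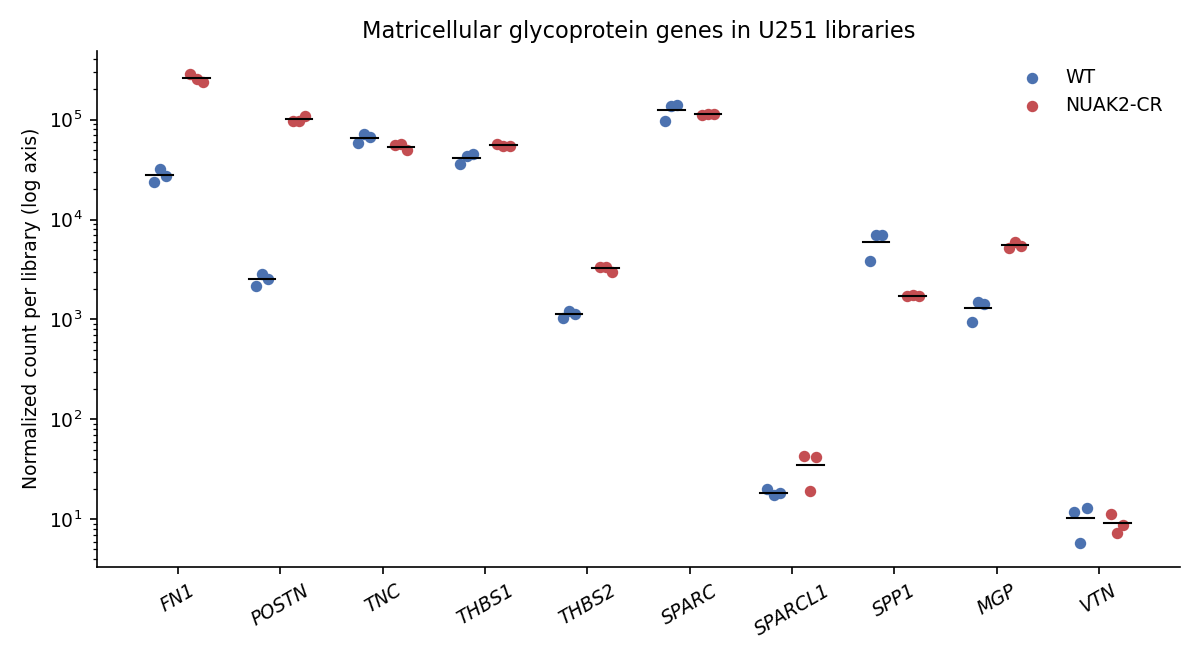
Normalized counts of the 10 genes on a log axis, with 1 dot per library for WT (blue) and NUAK2-CR (red) and a bar at the mean of each group of 3. FN1, POSTN, THBS2 and MGP sit higher and SPP1 lower in all 3 NUAK2-CR libraries, SPARC overlaps, and SPARCL1 and VTN lie below 50 normalized counts.

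Counted over the set, 5 of the 10 genes were higher at an adjusted p under 0.05, namely FN1, POSTN, THBS1, THBS2 and MGP, where 26.3% of all genes tested were higher. TNC and SPP1, or 2 of the 10, were lower, where 28.2% of all genes tested were lower. With an absolute LFC over 2 as well, 3 genes were higher, namely FN1, POSTN and MGP, against 1.89% of all genes, and 0 were lower, against 2.83%. The groups did not overlap for 7 of the 10, against 61.4% of all genes tested. Since the genes were selected on this comparison, nothing is read from these shares. The median LFC was 0.66 over the 10 genes and -0.01 over all genes tested.

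**Figure D2:**
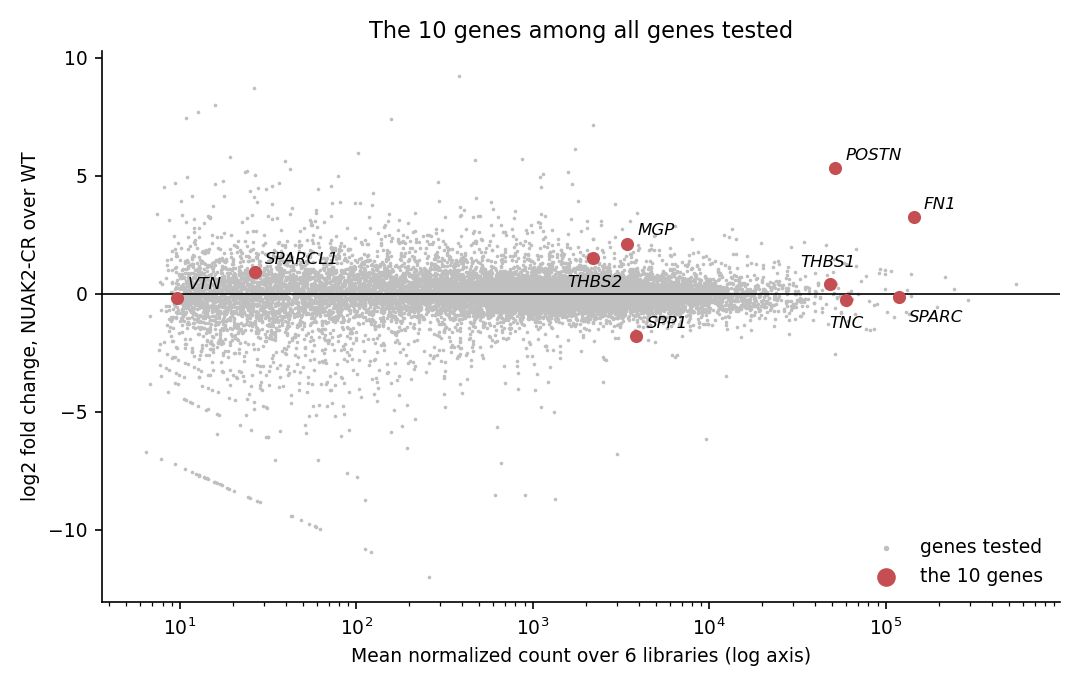
LFC (log2 scale) of NUAK2-CR over WT against the mean normalized count over the 6 libraries (log axis) for the 14873 genes tested (grey), with the 10 genes in red. POSTN (5.31) and FN1 (3.23) lie well above 0, while SPARC (-0.15), TNC (-0.29) and THBS1 (0.42) lie close to 0. The 10 genes were selected on this comparison.

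Together the 10 genes took 0.605%, 0.787% and 0.765% of all counts in the WT libraries against 1.63%, 1.57% and 1.55% for NUAK2-CR. The mean share was 0.719% ± 0.0996 for WT and 1.58% ± 0.0448 for NUAK2-CR (SD, n = 3 each), with no overlap. FN1 made up most of the difference. It went from 0.0739% ± 0.0107 to 0.695% ± 0.0554 (SD, n = 3 each) of all counts, while SPARC held 0.332% ± 0.0594 (SD, n = 3) and 0.300% ± 0.00563 (SD, n = 3).

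To compare levels between the genes, normalized counts were divided by the length of the canonical GENCODE transcript in kilobases. In WT, SPARC led with 62.1% ± 1.39 (SD, n = 3) of the summed reads per kilobase of the 10 genes, followed by TNC with 13.4% ± 1.25 (SD, n = 3) and THBS1 with 9.20% ± 0.737 (SD, n = 3). SPP1 at 6.48% ± 1.01 (SD, n = 3) and FN1 at 5.74% ± 0.532 (SD, n = 3) came next, and their reads per kilobase overlapped between libraries. MGP and POSTN, each at 1.33%, overlapped too, above THBS2 at 0.346%. SPARCL1 and VTN, the last 2, could not be ordered. SPARC stood 4.69-fold above TNC in reads per kilobase.

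In NUAK2-CR the same measure gave a different order. SPARC at 29.0% ± 0.744 (SD, n = 3), FN1 at 27.6% ± 2.07 (SD, n = 3) and POSTN at 27.1% ± 1.94 (SD, n = 3) stood at the top, and in reads per kilobase each overlapped the next in that order. The fourth, THBS1, held 6.31% ± 0.144 (SD, n = 3), 4.29-fold less than POSTN. TNC stood behind THBS1, with 5.61% ± 0.393 (SD, n = 3) and no overlap between the libraries. MGP at 3.00% stood above SPP1 at 0.982% and THBS2 at 0.505%, and SPARCL1 and VTN were again last and overlapped. The order below SPARC depended on the length used, and the overlaps above were read with canonical lengths only. With the longest transcript or the union of exons, SPARC remained first in both groups, FN1 moved above SPP1 in WT, and POSTN moved above FN1 and THBS2 above SPP1 in NUAK2-CR.

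**Figure D3:**
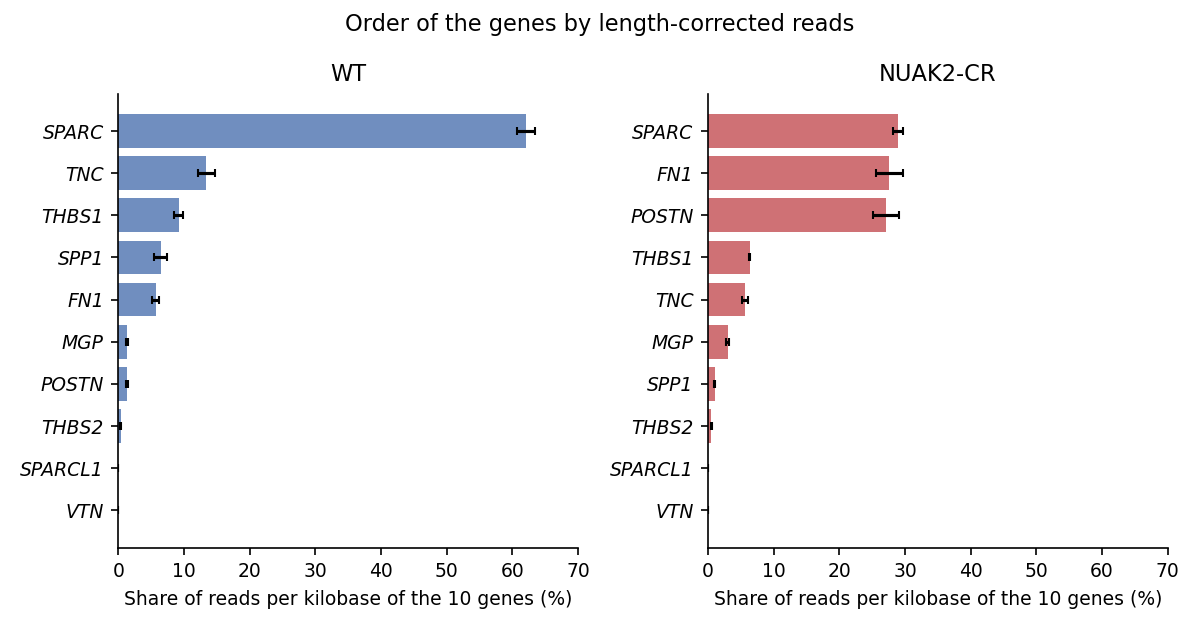
Share of the summed reads per kilobase of the 10 genes taken by each gene (percent, bars are means and error bars SD of 3 libraries), ordered from highest to lowest in WT (left) and NUAK2-CR (right). SPARC stands alone at 62.1% in WT, and SPARC, FN1 and POSTN share the top in NUAK2-CR at 29.0%, 27.6% and 27.1%. Lengths are those of the canonical transcripts.

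Relatives, receptors and partners of the 10 proteins were taken as 9 lists of 55 genes in all, of which 35 could be tested. By edgeR's test with Benjamini-Hochberg adjustment over all genes, 21 were higher, 6 were lower and 8 did not pass, with a median LFC of 0.45. Over all genes tested, 26.3% were higher and 28.2% were lower. These lists too were chosen with earlier results of the comparison known, so nothing is read from these shares. Relatives of the 10 did not all share their direction. TGFBI, a fasciclin-domain relative of periostin, fell from 115108 ± 5691 normalized counts to 40177 ± 1682 (SD, n = 3 each), with an LFC of -1.52 (SE 0.07, adjusted p = 3.58e-09). EMILIN2, an elastin microfibril interface protein, fell from 333 to 17.2 normalized counts (LFC -4.28, SE 0.21, adjusted p = 6.75e-09). Of the 5 tested genes of that list, 1 was higher (STAB2), 3 were lower (TGFBI, EMILIN2 and MMRN2) and EMILIN1 did not pass.

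None of the 3 other tenascins could be tested. TNR had 0 counts in every library, TNXB had 1 count in all, and TNN had 15, 2 and 4 counts in WT and 0 in NUAK2-CR. Reads on tenascin genes thus fell almost all on TNC. Of the other thrombospondins, THBS3 rose from 639 ± 46.8 to 1342 ± 49.0 (SD, n = 3 each) normalized counts (LFC 1.07, adjusted p = 5.83e-07 from edgeR) and THBS4 fell from 68.0 to 14.4 (LFC -2.24, adjusted p = 0.000114). THBS1, THBS2 and THBS3 were thus higher and THBS4 lower. COMP had too few counts to test.

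Of the SPARC family, 4 other genes could be tested and 3 were higher by edgeR's test. SPOCK1, a testican proteoglycan, rose by an LFC of 0.71 (SE 0.08, adjusted p = 1.21e-05), FSTL1 by 0.42 (SE 0.08, adjusted p = 0.000625) and SPOCK3 by 2.25 (SE 0.32, adjusted p = 7.28e-05). SPOCK2 did not pass, and SMOC2 had 0 counts throughout. SPARC itself had an LFC of -0.15. The 4 relatives of osteopontin that share its phosphoprotein family lie between SPARCL1 and SPP1 on chromosome 4, where SPP1 begins 502 kilobases after the first base of SPARCL1. DSPP had 2 counts over the 6 libraries together, DMP1 had 1, and IBSP and MEPE had 0, whereas SPP1 had 24023. A count of 0 in a library allows up to 3, and this covers counting error only. SPP1 was thus the only gene of this family read at more than a few counts.

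Among proteins that carry vitamin K-dependent Gla residues like MGP, GAS6, a ligand of the TAM receptors, rose from 2919 ± 235 to 7905 ± 529 (SD, n = 3 each) normalized counts (LFC 1.44, adjusted p = 2.4e-08 from edgeR). PROS1, the anticoagulant protein S, rose by 0.51 (adjusted p = 0.0193), a call that was lost without NUAK2-CR replicate 2 or 3. The genes of gamma-carboxylation and vitamin K recycling gave no call, with LFCs of -0.03 for GGCX, 0.06 for VKORC1 and 0.05 for VKORC1L1. All 3 tested CCN proteins, matricellular proteins outside the 10, were higher by edgeR's test, CCN1 by 0.49 (adjusted p = 0.0019), CCN2 by 0.64 (adjusted p = 0.000219) and CCN3 by 0.84 (adjusted p = 0.00017) on the log2 scale. CCN5 had 0 counts in all libraries.

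Of 13 tested receptors for these proteins, 9 were higher, 1 was lower and 3 did not pass by edgeR's test. The shares over all genes tested were 26.3% higher and 28.2% lower, and since this list was chosen with earlier results known, nothing is read from them. ITGB5, the beta subunit that pairs with alpha-v to bind vitronectin and periostin, rose from 6016 ± 322 to 14855 ± 590.0 (SD, n = 3 each) normalized counts (LFC 1.30, adjusted p = 1.56e-08). SDC4, a syndecan that acts with integrins on fibronectin, rose by 1.16 (adjusted p = 8.15e-08), and ITGA4, an alpha subunit that reads fibronectin and osteopontin, by 0.87 (adjusted p = 8.93e-05). The classical fibronectin receptor genes ITGA5 and ITGB1 had smaller values of 0.30 (adjusted p = 0.00225) and 0.47 (adjusted p = 0.00266), and ITGAV and ITGB3 had 0.57 (adjusted p = 0.00471) and 0.76 (adjusted p = 1.41e-05). CD44, the hyaluronan receptor that also binds osteopontin, was the 1 that fell, from 121881 ± 16233 to 41756 ± 1025 (SD, n = 3 each), an LFC of -1.55 (adjusted p = 3.81e-08). Osteopontin and this receptor were both lower in NUAK2-CR. The thrombospondin receptor CD47 had 0.35 (adjusted p = 0.00939), and CD36 had means of 5.88 and 17.8 normalized counts. ITGA9, ITGB8 and CACNA2D1 were those that did not pass, and ITGA8 had at most 1 count in a library.

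Among partners of vitronectin, PLAU, the urokinase protease, rose by an LFC of 0.76 (adjusted p = 4.63e-06 from edgeR). Its receptor PLAUR, which binds vitronectin, rose by 0.35 (adjusted p = 0.00203). VTN itself stayed at a few counts. THBS4, STAB2, MMRN2, SPOCK3, SPOCK2, EMILIN1, TNN, COMP, CD36, CD47, ITGA5, ITGB1, ITGAV, ITGB3, ITGA9, ITGB8, CACNA2D1 and the 3 carboxylation genes, and below LUM, COL1A2, PECAM1, VWF and STMN2, fall outside the rule for named genes and were named after their values had been seen.

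**Figure D4:**
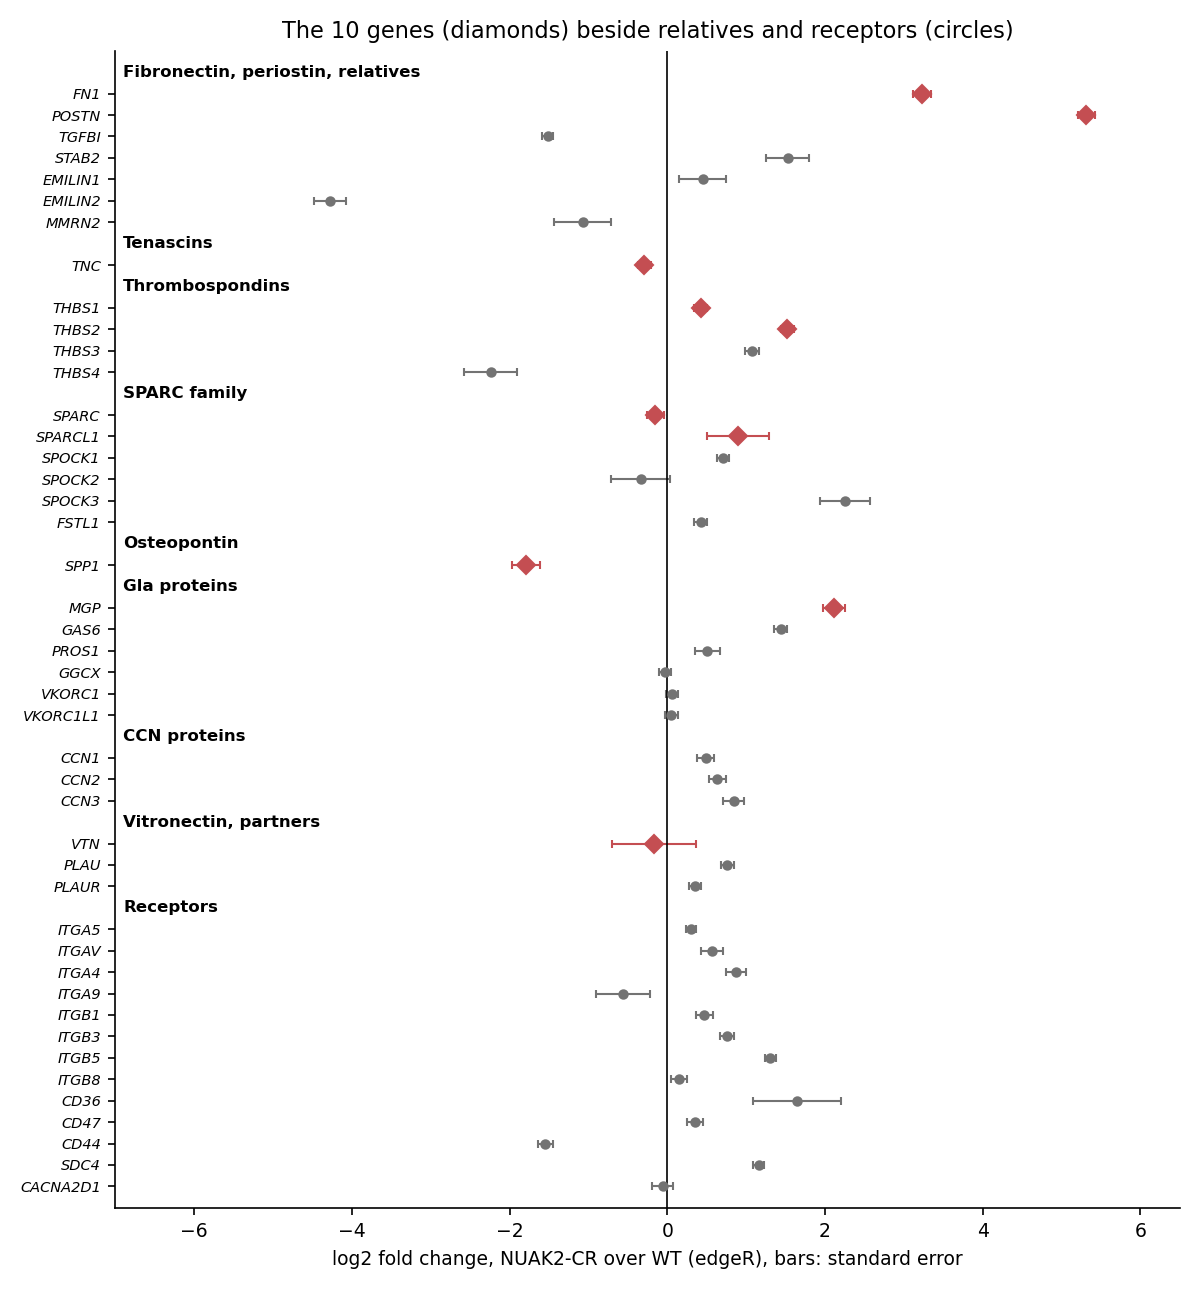
LFC (log2 scale) of NUAK2-CR over WT with its SE for the 10 genes (red diamonds) and the tested relatives, partners and receptors (grey circles), grouped by family. POSTN and TGFBI, both fasciclin-domain proteins, lie on opposite sides of 0 at 5.31 and -1.52, and most receptors lie above 0 with CD44 at -1.55.

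Markers of other cells were read beside these values, where 26.3% of all genes tested were higher and 28.2% were lower. The marker lists were also chosen with earlier results known, so their counts are a description. The 9 fibroblast and mural markers were all tested, with 5 higher (ACTA2, DCN, LUM, COL1A2 and PDGFRB), 3 lower and 1 not passing, and their summed normalized counts ranged from 41987 to 42815 in WT and from 63754 to 68919 in NUAK2-CR. They moved in both directions by edgeR's test. ACTA2, the smooth muscle actin, rose by an LFC of 4.52 (adjusted p = 1.07e-11), DCN from 2.71 to 201 normalized counts (adjusted p = 2.77e-07) and PDGFRB by 1.03 (adjusted p = 1.91e-07). PDGFRA had -2.54 (adjusted p = 1.65e-06), COL1A1 -1.15 (adjusted p = 5.54e-06) and RGS5 -0.96 (adjusted p = 0.000415). FN1, POSTN, THBS2 and MGP are also expressed by fibroblasts, and the part that these markers have in their values was not tested. The 4 endothelial markers summed to 227 to 308 in WT and 186 to 201 in NUAK2-CR, with 2 higher (PECAM1 and VWF) and 1 lower. KDR, a receptor of vascular endothelial growth factor, was the endothelial marker that fell (LFC -1.24, adjusted p = 0.000124). The 5 microglia and macrophage markers summed to 846 to 964 in WT and 239 to 286 in NUAK2-CR, and both that could be tested, CSF1R (-2.46, adjusted p = 4.94e-07) and CD68 (-1.59, adjusted p = 3.08e-07), were lower. The defining marker AIF1 had 0 counts in all libraries, and PTPRC and ITGAM had at most 3 counts in a library. Of 4 neuron markers 3 were higher (SNAP25, STMN2 and SYT1) and none lower, with sums of 450.4 to 583 in WT and 1423 to 1708 in NUAK2-CR, led by SNAP25 (3.56, adjusted p = 2.49e-09). Of the 4 oligodendrocyte markers, which summed to 117 to 161 in WT and 38.4 to 51.9 in NUAK2-CR, MBP was lower (-1.99, adjusted p = 2.6e-05), and MOG and OLIG2 had 0 counts throughout.

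To place the differences along the chromosome, each gene was set beside the 20 tested genes that start nearest to it. The farthest of the 20 lay at 8.75 megabases for THBS2 and at 0.347 megabases for VTN. FN1 at 3.23 stood above all 20, whose median LFC was 0.08 and whose highest was 1.91. POSTN at 5.31 stood above all 20, with a median of -0.48 and a highest value of 0.92. THBS2 at 1.52 stood above all 20 (median -0.36), and SPP1 at -1.79 stood below all 20 (median 0.37). For these 4 genes no neighbor had as large a difference in the same direction. Since the genes were selected on this comparison, those with a large LFC were likely to stand beyond their neighbors in any case. Whether the differences were shared along the chromosome is thus not read from these positions. MGP at 2.12 had 1 of 20 above it and a median of 0.25. THBS1 had 2 above it, SPARC and VTN 4 each, SPARCL1 1 and TNC 13. SPARCL1 and SPP1 count among the neighbors of each other. These positions are a description and were not tested.

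**Figure D5:**
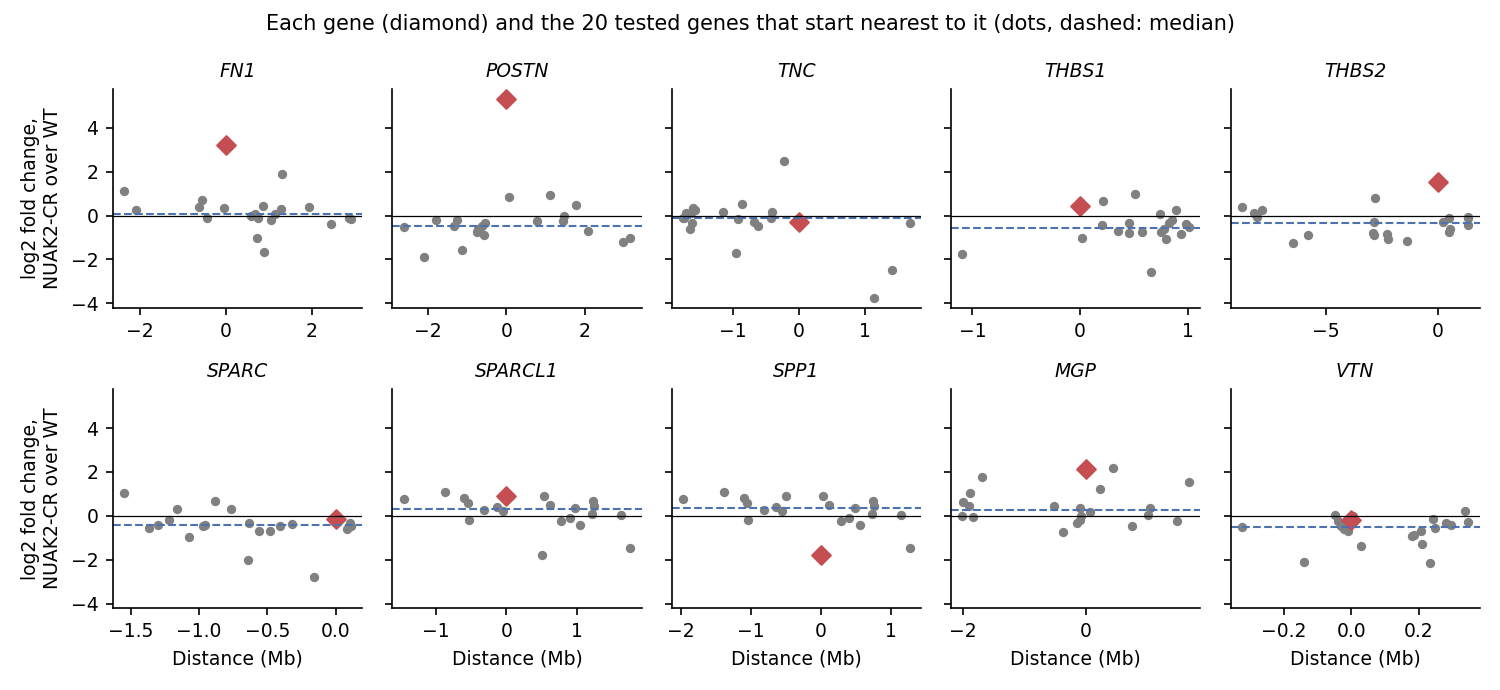
LFC (log2 scale) of NUAK2-CR over WT for each of the 10 genes (red diamond at 0) and its 20 nearest tested genes (grey dots) against the distance between starts in megabases, with the median of the 20 as a dashed line. FN1, POSTN and THBS2 lie above all of their neighbors and SPP1 lies below all of its neighbors.

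Genes whose values ran most alike over the 6 libraries were sought among 12055 other genes whose higher group averaged 100 normalized counts or more, by the Euclidean distance between log2 CPM values centred on their mean. Nearest to FN1 were FAP, the fibroblast activation protease, at 0.275, HAS2, a hyaluronan synthase, at 0.301, and ARHGAP24 at 0.318. Their LFCs were 3.28, 3.03 and 3.35, beside 3.23 for FN1. Nearest to POSTN were MFAP4, a microfibril-associated protein, at 0.559, CADPS at 0.621 and TNFRSF11B, the decoy receptor osteoprotegerin, at 0.641, with LFCs of 4.93, 5.05 and 5.15. POSTN had no gene as near to it as FN1 had. Nearest to SPP1 were PCDH20, a protocadherin, at 0.401, SNHG33 at 0.419 and LRRN1 at 0.427, with LFCs of -1.97, -1.67 and -1.55. All of these genes were measured in the same 6 libraries, and the distances include the group difference on which the 10 genes were selected.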

How the data were processed

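The authors used TRIzol for RNA and the Illumina Stranded mRNA Prep kit for libraries. Reads were trimmed (Trimmomatic), aligned to hg38 (HISAT2) and assigned to genes (featureCounts) at default settings. The annotation is not given in the sources used here, and no strand setting is named beyond those defaults. The authors deposited raw counts of 28395 genes by NCBI identifier, of which 27745 were matched to a symbol. Groups came from the sample titles.

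Counts were fitted in R 4.3.3 with edgeR 4.0.16 (filterByExpr, TMM, glmQLFit and the quasi-likelihood F test, prior count 0.125) over all 6 libraries, with Benjamini-Hochberg adjustment over 14873 genes and a common biological coefficient of variation of 0.101. The fit was run on simulated counts in which a small set of genes differed. Far more genes were called in the data, so the scaling was not checked for such a case. Each SE of a log2 fold change was derived from the test, as the absolute log2 fold change divided by the square root of the F statistic. Calls used an adjusted p under 0.05, and stronger calls also an absolute log2 fold change over 2. Normalized counts are scaled to the mean effective library size. Reads per kilobase used GENCODE 44 canonical transcript lengths, while positions, overlaps and upstream windows used RefSeq GRCh38.p14.

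1 listed gene is not reported here. The 10 genes and all lists were chosen with earlier results of these data known. Named genes are the 10, NUAK2, up to 3 higher and 3 lower called genes per list whose higher group averaged 100 normalized counts or more, list members with at most 3 counts in every library, and the 3 nearest patterns of FN1, POSTN and SPP1. Alternatives were DESeq2 1.42.0, other scalings and filters, each library left out, a replicate block, the 10 genes left out of the scaling, a prior count of 2, a log2 threshold of 1, the filtered genes as the denominator of shares and other transcript lengths.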

Additional observations from a re-analysis of the deposited data

How the results depend on the processing

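Over the alternatives, the 10 genes gave 139 log2 fold changes, of which 134 kept their direction and their side of the threshold and 0 turned. The 5 others are those of TNC, SPARC and SPARCL1 given above. Of relatives, partners and markers, only the called genes picked by the rule for named genes were followed, so most were likely to pass again. Of 447 such values for them, 445 kept both and 2, both of PROS1, lost the threshold. Listed genes that the rule did not pick are not among these values. The genes called in all numbered 8107, and 7190 to 8481 when 1 library was left out. Those also past the log2 threshold of 2 numbered 702, and 740 to 805 with 1 library left out, but 339 with at least 10 counts required in every library, which drops genes near 0 in one group, and 2062 at a threshold of 1. With 1 library left out, 6 to 8 of the 10 genes and 23 to 26 partner genes were called, and the share of the 10 genes ranged from 0.685% to 0.776% in WT and from 1.56% to 1.60% in NUAK2-CR. VTN was not fitted where 10 counts were required. Of the 10 genes, the number that kept their place in the order by reads per kilobase was 6 in WT and 6 in NUAK2-CR with the longest transcript, and 4 in WT and 6 in NUAK2-CR with the union of exons. No sign was seen that the replicate numbers pair the libraries. Same-numbered libraries had correlations of 0.0269, -0.100 and 0.0871 between their deviations from the group means. For libraries of unlike number the correlations ranged from -0.121 to 0.0805. How the replicates were numbered is not given in the sources used here. With the replicate number as a block, 8167 genes were called, 709 of them past the log2 threshold of 2, with 7 of the 10 genes and 27 partner genes. DESeq2 called 8077 genes and 7 of the 10. With 3 libraries a group, and a few counts per library for SPARCL1 and VTN, small differences were not detectable for those genes.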
